A study of Homo sapiens with 12 samples.

Results

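Cytoplasmic RNA was compared with whole-cell RNA of the same human cell line, WT-res, to find which genes and RNA classes were enriched in or depleted from the cytoplasm. The comparison used 6 of the 12 samples of the series, 3 cytoplasmic and 3 whole-cell, chosen by their labels of line and fraction and by no measured value. WT-res is a HEK293 Flp-In T-REx line, a human embryonic kidney line with a single site for inserted genes. Doxycycline induces in it 2 chained miRNAs that deplete endogenous PGC-1α, a transcription coactivator, together with a FLAG-tagged full-length PGC-1α cDNA that resists these miRNAs. All 12 samples had doxycycline at 1 µg/ml for 6 days, and the other 6 came from ΔRS-res, an isogenic line whose resistant PGC-1α lacks the RS domain. Each line was made by insertion at that 1 site. No result here covers a second, independently made line of the same construct. Replicates came from consecutive passages. Whole-cell RNA came from 1 well per replicate and cytoplasmic RNA from 6 pooled wells. In its fractionation method the study describes total extracts as lysed and cleared by centrifugation. Whether the whole-cell RNA sequenced here was cleared in this way is not stated.

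For cytoplasmic RNA, cells were lysed in a hypotonic buffer for which no detergent is listed. The lysate was cleared in 3 spins of rising force, and the last supernatant was the cytoplasmic fraction. Such a supernatant holds the soluble cytosol, while material that pellets with nuclei, membranes or mitochondria stays behind. A cell keeps many RNAs out of the cytosol. Long noncoding RNAs such as NEAT1 stay at nuclear bodies or on chromatin, small nucleolar and Cajal body RNAs guide the modification of other RNAs inside the nucleus, and incompletely spliced mRNAs are held there until their introns are removed. Other mRNAs are exported but translated on the endoplasmic reticulum (ER) membrane, where a hydrophobic signal of the growing protein brings the ribosome, and mitochondria make and translate mRNAs of their own.

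The coding starts of 2 pairs of related chaperones are shown because the members of each pair are made in different places. HSPA5 (BiP) and HSP90B1 (GRP94) fold proteins in the ER lumen, and HSPA8 (Hsc70) and HSP90AB1 (Hsp90 beta) in the cytosol. Each line holds the first 90 coding bases of the canonical transcript, from GENCODE 44 on GRCh38. Capitals mark codons inside any window of 11 residues with a mean Kyte-Doolittle hydropathy of at least 1.6, a measure of how strongly a stretch avoids water. HSPA5 lies on the minus strand at chr9:125241037-125241126, HSPA8 on the minus strand at chr11:123061235-123061324, HSP90B1 on the plus strand at chr12:103930516-103931561 with an intron inside, and HSP90AB1 on the plus strand at chr6:44248630-44248719.
HSPA5: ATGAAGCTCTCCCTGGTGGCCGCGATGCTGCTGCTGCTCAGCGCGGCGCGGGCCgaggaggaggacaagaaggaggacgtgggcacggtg
HSPA8: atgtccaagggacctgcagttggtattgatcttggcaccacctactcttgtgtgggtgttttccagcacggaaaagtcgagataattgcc
HSP90B1: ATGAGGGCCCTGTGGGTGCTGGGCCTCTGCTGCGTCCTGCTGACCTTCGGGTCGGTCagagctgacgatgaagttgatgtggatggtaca
HSP90AB1: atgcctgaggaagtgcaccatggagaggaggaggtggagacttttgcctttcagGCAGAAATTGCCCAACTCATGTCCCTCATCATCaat
Both ER chaperones opened with such a stretch, which reached a mean hydropathy of 2.88 in HSPA5 and 2.83 in HSP90B1. HSPA8 had none (highest mean 1.2), and HSP90AB1 had 1 window just over the threshold (1.71), away from its start.

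A nuclear guide RNA is shown as well, because small nucleolar RNAs (snoRNAs) were among the most depleted RNAs. SNORD17 (ENSG00000212232, chr20:17962710-17962946, minus strand of GRCh38) is printed whole, with a C box (TGATGA) and a D box (CTGA) in capitals. These letters were searched on the transcribed strand, the C box first and the D box after it.
SNORD17: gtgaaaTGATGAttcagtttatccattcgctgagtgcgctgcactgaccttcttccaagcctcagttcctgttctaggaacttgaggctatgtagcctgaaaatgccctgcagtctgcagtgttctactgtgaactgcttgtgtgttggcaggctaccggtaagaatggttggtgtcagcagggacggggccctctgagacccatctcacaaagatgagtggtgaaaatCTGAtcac
Of 942 annotated snoRNA genes, 31.6% held both boxes in this order.

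Depth was high and similar in both fractions, with totals of 92029286 to 144628005 counts in the cytoplasmic samples and 90333190 to 121993866 in the whole-cell samples. HEK293 markers were present, including VIM (773 ± 31.4 CPM, SD, n = 3 whole-cell samples), KRT8 (103 ± 22 CPM) and KRT18 (75.6 ± 7.17 CPM), where CPM is the count scaled to the TMM effective library size, with no correction for gene length. Of 14 markers of blood, liver, kidney tubule, podocyte, muscle and skin cells, 9 stayed under the minimum mean count of 2 and UMOD was at 0 in all 6 samples. The summed level of the other 5 was 5.98 to 6.88 CPM in cytoplasmic and 3.42 to 6.28 CPM in whole-cell samples, most of it COL1A1. PPARGC1A, the gene of PGC-1α, had 548 to 667 CPM in cytoplasmic and 474 to 664 CPM in whole-cell samples, with resistant and endogenous copies counted together. The study left 1 WT-res cytoplasmic replicate out of its own tests, while all 3 were used here. Chi-square per gene, a measure of how far 2 samples differ, was 60.5 between cytoplasmic replicates 1 and 3. It was 110 and 128 for the pairs with replicate 2. Between whole-cell samples it was 41.2 for replicates 1 and 2, and 214 and 183 for the pairs with replicate 3. WT-res whole-cell replicate 3 had 0.189 CPM of DDX19B, an mRNA export helicase, against 12.1 to 15.1 CPM in the other 5 samples. It also had 319 CPM of SDHA, a subunit of mitochondrial complex II, against 68.3 to 77.1 CPM. The 6 ΔRS-res samples had 0.229 to 0.349 CPM of DDX19B and 318 to 393 CPM of SDHA, relative to the library total. In these genes that sample resembled the ΔRS-res line, so results are given with it and a part of them also without it.

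Genes were tested on counts summed over their transcripts with edgeR's quasi-likelihood test, and all adjusted p-values below are Benjamini-Hochberg values of that test over all genes tested. A gene was called when its adjusted p was under 0.05 and its log2 fold change, cytoplasmic over whole-cell, was above 0.5 in size. Of 26585 genes tested, 1065 were called higher in the cytoplasm (4.01%) and 5692 lower (21.4%). Without a fold threshold the shares were 12.0% higher and 22.4% lower. In 21.2% of genes all 3 cytoplasmic samples lay above all 3 whole-cell samples, and in 29.1% they all lay below. These are shares of sequenced RNA. The amount of RNA per cell in each fraction was not measured, so that less RNA per cell and a smaller share of the RNA cannot be told apart. The 3 samples of a group are passages of 1 line, and p-values measure the spread between these.

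The lower calls were more stable than the higher ones. Leaving out WT-res whole-cell replicate 3 gave 1535 higher (5.80%) and 5714 lower genes (21.6%) of 26451. Of the 5692 lower calls, 5229 were called lower without that sample too (91.9%), while 784 of the 1065 higher calls were kept (73.6%), and none changed direction. The number of higher calls was 425 without cytoplasmic replicate 3 and 521 without whole-cell replicate 1. It also moved with the scaling. Higher genes made up 15.8% of all calls with TMM, 25.3% with DESeq2's size factors, 7.92% with library totals and 5.54% with TMM over protein-coding genes. The last scaling moved the median log2 fold change of all genes from -0.06 to -0.18, a shift of -0.12, so that small positive values below are to be read against it.

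The fraction markers separated the samples. NEAT1, the scaffold of nuclear paraspeckles (ENSG00000245532, chr11:65422774-65445540), had 126, 80.3 and 86.7 CPM in the cytoplasmic samples and 280, 241 and 320 CPM in the whole-cell samples. KCNQ1OT1, an imprinted RNA bound to chromatin (ENSG00000269821, chr11:2597308-2700003), had 7.76, 8.50 and 6.38 CPM against 28.5, 27.9 and 27.9 CPM. Whether strand was used in counting is not given in the sources used here, so its reads may include those of KCNQ1, on the other strand. In both genes every cytoplasmic sample was below every whole-cell sample, by 2.87-fold in NEAT1 (log2 fold change -1.52 ± 0.185 SE, adjusted p = 0.000559) and 3.72-fold in KCNQ1OT1 (-1.90 ± 0.127, adjusted p = 2.35e-05). MALAT1, of nuclear speckles, overlapped between the fractions (986 to 1743 against 1619 to 2995 CPM) and was not called (log2 fold change -0.71, adjusted p = 0.0936).

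Of 4 mRNAs of cytosolic proteins used as markers, 3 moved the other way by a small amount. GAPDH, a glycolysis enzyme, had 3337 ± 159 CPM in the cytoplasm and 2482 ± 48.8 CPM in whole cells (SD, n = 3 each), and RPLP0, of the ribosomal stalk, 2132 ± 216 against 1518 ± 22.8 CPM. Their fractions did not overlap and their adjusted p-values were 0.00694 and 0.00759, but their log2 fold changes of 0.43 and 0.49 were under the fold threshold. EEF1A1, which brings aminoacyl-tRNA to the ribosome, was called higher (13159 ± 1369 against 8820 ± 169 CPM, log2 fold change 0.58, adjusted p = 0.00417), and with TMM over protein-coding genes it had 0.46 and was not called. ACTB overlapped (log2 fold change 0.23, adjusted p = 0.37).

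**Figure D1:**
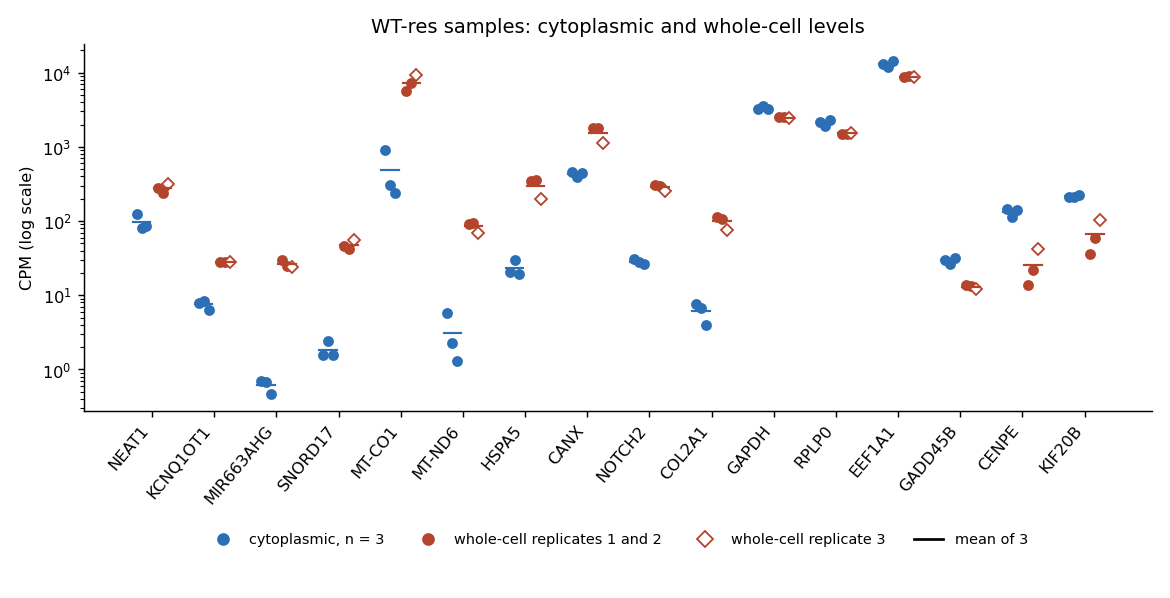
CPM on a log scale of 16 genes in the 6 WT-res samples, each point 1 sample and each bar the mean of 3, with whole-cell replicate 3 as an open diamond. The fractions are apart in all 16 genes, with NEAT1 to COL2A1 lower and GAPDH to KIF20B higher in the cytoplasm. MIR663AHG, SNORD17, MT-CO1, MT-ND6, COL2A1, CENPE and KIF20B were named by a rule that required no overlap. In CENPE and KIF20B whole-cell replicate 3 is the whole-cell sample nearest to the cytoplasmic ones.

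RNA classes differed in how they were divided. Nuclear-encoded protein-coding genes took 91.6% ± 0.661 of counts in the cytoplasm and 86.5% ± 1.13 in whole cells (SD, n = 3 each). Their median log2 fold change was 0.14, with 922 of 16051 called higher and 2774 lower. Without whole-cell replicate 3, 1358 of them were called higher and 2817 lower. Long noncoding RNAs (lncRNAs) took 1.54% ± 0.107 against 2.30% ± 0.418 of counts, and 1785 of 6739 were called lower and 62 higher, with a median of -0.56. Among the 2124 lncRNAs whose canonical transcript has 1 exon, 38.3% were called lower, against 22.5% of those with 2 exons and 19.9% of those with 3 or more.

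The small nuclear guides were depleted more than the other classes of nuclear RNA with over 10 genes tested. snoRNAs took 0.0816%, 0.10% and 0.0553% of counts in the cytoplasmic samples and 1.02%, 0.852% and 1.14% in the whole-cell samples, a mean 12.7 times higher in whole cells. Of 169 snoRNAs tested, 142 were called lower and 1 higher, with a median log2 fold change of -3.2. The 52 with both boxes had a median of -3.67 and 45 were called lower, and of the other 117, 97 were called lower with a median of -3.08. Small Cajal body RNAs (scaRNAs) had a median of -2.79, with 14 of 17 called lower, among them SCARNA6 (log2 fold change -3.43, adjusted p = 3.44e-05) and SCARNA7 (-2.79, adjusted p = 9.92e-06). Small nuclear RNAs (snRNAs) had a median of -1.95, and 37 of 67 were called lower and none higher. Several U1 genes are near-identical copies and carry identical counts, so the 67 are not separate measurements. RN7SK, a nuclear RNA that restrains transcription elongation, was not called (16688 ± 2666 against 20839 ± 1862 CPM, adjusted p = 0.0977).

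For these class shares an exact permutation test, 2-sided, of 3 against 3 cannot go below p = 0.1, and it gave 0.1 for protein-coding genes, lncRNAs, snoRNAs, scaRNAs, snRNAs and mitochondrially encoded mRNAs, as no share overlapped between the fractions.

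**Figure D2:**
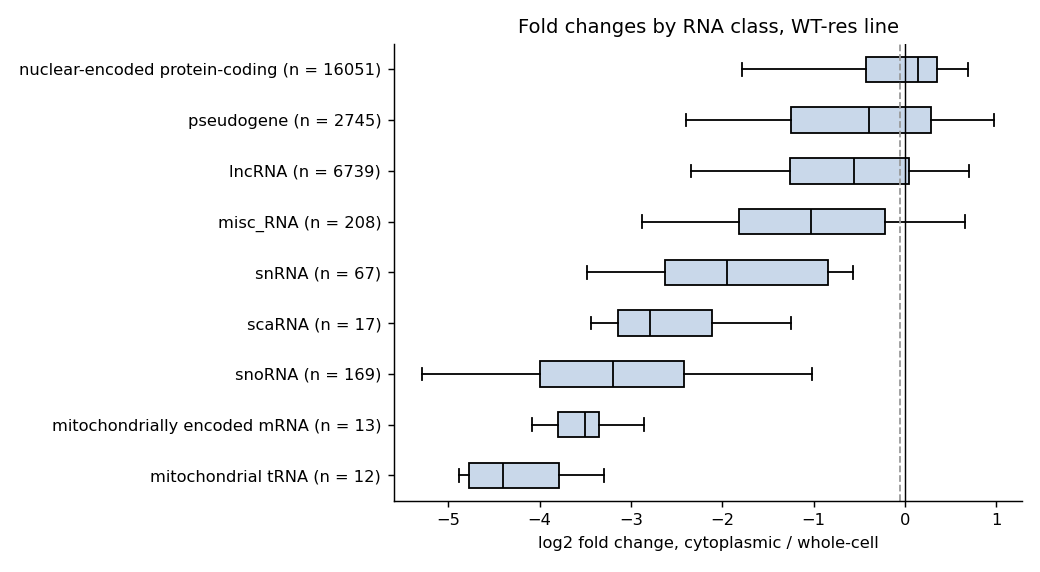
Log2 fold change (cytoplasmic over whole-cell) of the tested genes of 9 RNA classes, with the box at the quartiles, the line at the median and whiskers at the 5th and 95th percentile, n in brackets. The dashed line is the median of all genes, -0.06. Medians run from -4.40 for mitochondrial tRNAs to 0.14 for nuclear-encoded protein-coding genes.

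SNORD17, whose sequence is given above, had 1.59, 2.43 and 1.55 CPM in cytoplasmic and 45.7, 41.5 and 55.2 CPM in whole-cell samples, 25.6-fold lower (log2 fold change -4.68 ± 0.216, adjusted p = 6.6e-06). SNORA70, a pseudouridylation guide, was at 0.257 to 0.324 against 5.04 to 7.00 CPM (log2 fold change -4.39, adjusted p = 7.09e-06). Both were named by a rule that required no overlap between the fractions, so their separation followed from that choice. The SNORD3 genes encode U3, the abundant snoRNA of early ribosomal RNA processing, in near-identical copies. The 1 snoRNA called higher was one of 2 overlapping records of SNORD3D, with 3421 to 5615 counts in the cytoplasmic samples and 0 in all whole-cell samples. The other record of the same locus held 45098 to 63153 counts in whole cells and 0, 4503 and 0 in the cytoplasm. Summed over its 6 records, U3 had 738, 930 and 503 CPM of the library total in cytoplasmic and 9431, 7879 and 10635 CPM in whole-cell samples, 12.9 times higher in whole cells, so the direction of 1 record does not hold for the family.

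The RNAs of 2 nuclear enzymes went the same way as the guides. RMRP, the RNA of RNase MRP, fell (744 ± 155 against 2165 ± 174 CPM, log2 fold change -1.54, adjusted p = 0.000223), and so did TERC, the telomerase RNA (log2 fold change -1.25, adjusted p = 0.000584). They were the only 2 called of 11 tested members of a list of small structured RNAs. This list holds TERC beside RNAs of RNA polymerase III and of RNases. Its median was -0.10, and 21.4% of all genes were called lower. Without whole-cell replicate 3, 1 member was called higher. RN7SL1, the RNA of the signal recognition particle, had 19600 ± 466 against 21027 ± 1065 CPM and was not called (log2 fold change -0.10, adjusted p = 0.406).

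Single lncRNAs covered a wide range. MIR663AHG (ENSG00000227195, chr20:26167817-26251546) showed the largest decrease of any gene with at least 5 CPM in the higher fraction and no overlap, 42.7-fold, with 0.700, 0.687 and 0.469 CPM in cytoplasmic and 30.0, 25.0 and 23.9 CPM in whole-cell samples (log2 fold change -5.42 ± 0.2, adjusted p = 4.94e-06). Of 16 tested lncRNAs known from the nucleus, 8 were called lower and none higher, with a median of -0.79. They included MIAT (log2 fold change -2.33, adjusted p = 0.000419) and FTX, of the X inactivation centre (-1.26, adjusted p = 0.00197). TUG1 passed the adjusted p (0.0239) at -0.37, under the fold threshold. Of 12 lncRNAs known from the cytoplasm, none was called (1 higher without whole-cell replicate 3), and their median was 0.23. NORAD, which sequesters Pumilio proteins, was at 580 ± 36.4 against 468 ± 14.6 CPM (log2 fold change 0.31, adjusted p = 0.0281). The 24 host genes of snoRNAs split, with 8 called lower and none higher (1 higher without whole-cell replicate 3). SNHG12 fell (log2 fold change -1.45, adjusted p = 0.00011), whereas SNHG16 did not overlap in the other direction (0.44, adjusted p = 0.00592).

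Mitochondrially encoded mRNAs were depleted as a group. They took 0.327%, 0.129% and 0.0919% of counts in the cytoplasmic samples and 1.92%, 2.28% and 2.65% in the whole-cell samples, a mean 12.5 times higher in whole cells. All 13 were called lower, with a median log2 fold change of -3.51, against a background of 21.4%. MT-CO1, a core subunit of complex IV, had 909, 311 and 240 CPM in cytoplasmic and 5624, 7209 and 9192 CPM in whole-cell samples (log2 fold change -3.92 ± 0.513, adjusted p = 0.000849). MT-ND6, the mRNA made from the opposite strand, had the lowest value (-4.80, adjusted p = 0.000269) and MT-ND4 the highest (-2.70, adjusted p = 0.00183). Cytoplasmic replicate 1 was the highest cytoplasmic sample in all of these, yet it stayed far below every whole-cell sample. MTCO1P12, a nuclear copy of MT-CO1 on chromosome 1 that can take its reads, moved with them (log2 fold change -3.97, adjusted p = 0.000446). The 2 mitochondrial rRNAs, which rRNA depletion removes, were at 10.5 CPM or less in the cytoplasm and were not called. All 12 mitochondrial tRNAs tested were called lower, at well under 0.001% of counts.

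mRNAs of nuclear-encoded mitochondrial proteins did not follow the mitochondrial ones. Of 77 subunits of the respiratory chain 2 were called lower and none higher (1 higher without whole-cell replicate 3), with a median of 0.10. ATP5F1B, of the ATP synthase, had 1379 ± 60.5 against 1169 ± 174 CPM (log2 fold change 0.24, adjusted p = 0.154), and ATP5F1A 612 ± 20.5 against 509 ± 48.7 CPM (0.26, adjusted p = 0.0664). The 2 exceptions were COX6A1, of complex IV (log2 fold change -1.26, adjusted p = 0.000123), and NDUFB9, of complex I (-0.91, adjusted p = 0.000132). Of 78 mitochondrial ribosomal proteins 1 was called in each direction, MRPS10 higher (0.54, adjusted p = 0.00398) and MRPS25 lower (-0.91, adjusted p = 7.81e-05), around a median of 0.24. MRPS10 was not called without whole-cell replicate 3 (0.46), and with a replicate block 2 members were called higher.

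mRNAs of proteins that enter the ER were depleted almost throughout. Of 25 ER chaperones and folding enzymes 24 were called lower and none higher, with a median log2 fold change of -1.89. HSPA5 had 20.6, 30.0 and 19.5 CPM in cytoplasmic and 350, 358 and 196 CPM in whole-cell samples, 12.9-fold lower (log2 fold change -3.69 ± 0.277, adjusted p = 3.95e-05). HSP90B1 was 7.09-fold lower (108 ± 16.3 against 768 ± 55.0 CPM, adjusted p = 6.6e-06). None of 3 cytosolic relatives was called, and HSPA8 and HSP90AB1 overlapped between the fractions. HSPA8 had 661 to 1432 CPM in cytoplasmic and 766 to 1223 CPM in whole-cell samples (log2 fold change -0.17, adjusted p = 0.693). HSP90AB1 had 1561 to 2160 against 1073 to 1671 CPM (0.28, adjusted p = 0.29). HSP90AA1 did not overlap, with 2677 to 4004 against 1807 to 2634 CPM (0.57, adjusted p = 0.0559), and with a replicate block it was called higher (0.56, adjusted p = 0.00238). CANX, the membrane chaperone calnexin, had the highest level of the ER list and fell to 433 ± 33.6 from 1562 ± 371 CPM in whole cells (log2 fold change -1.85, adjusted p = 0.000154). ERP29 had the smallest decrease in the list (-0.69, adjusted p = 0.00523).

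The machinery of ER entry was divided by its members. Of 25 subunits of the translocon, signal peptidase and oligosaccharyltransferase 20 were called lower and none higher, with a median of -0.93. RPN2, a subunit of the oligosaccharyltransferase, fell the most (43.7 ± 3.72 against 240 ± 10.9 CPM, log2 fold change -2.46, adjusted p = 5.55e-06), and SEC61A1, the channel itself, by 2.26 on the log2 scale (adjusted p = 6.79e-05). SEC61B, whose protein has its only membrane segment at the C-terminus, had 46.4, 65.1 and 54.0 against 53.5, 56.7 and 30.4 CPM and overlapped (0.24, adjusted p = 0.458, and -0.01 without whole-cell replicate 3). SSR3, with several membrane segments, had -0.28 (adjusted p = 0.0836).

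Secreted and cell surface proteins showed the same direction. Of 36 collagens and laminins tested 28 were called lower and none higher, with a median of -2.37. COL2A1, a fibrillar collagen, was 16.3-fold lower (7.58, 6.73 and 3.98 against 115, 106 and 75.8 CPM, adjusted p = 2.42e-05), followed by COL4A1 of basement membranes (log2 fold change -3.93, adjusted p = 1.04e-05). LAMC1 and LAMB1, chains of laminin, had -2.71 (adjusted p = 4.78e-06) and -2.45 (adjusted p = 2.2e-05). Of 59 receptors and adhesion proteins 57 were called lower and none higher, with a median of -1.84. NOTCH2, a receptor of cell to cell signalling (chr1:119911553-120100779), was 10.1-fold lower, with 31.2, 28.0 and 26.2 against 311, 297 and 258 CPM (adjusted p = 4.94e-06). SLC38A1, an amino acid transporter, fell by 1.02 on the log2 scale (adjusted p = 8.9e-05). Among the HEK293 markers, CDH2 and EPCAM, both adhesion proteins, were the 2 called lower (-2.29, adjusted p = 5.55e-06, and -1.33, adjusted p = 3.73e-05).

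Pathways with both membrane and soluble proteins held members of either direction. Of 23 genes of cholesterol synthesis and its control, 13 were called lower and 1 higher. Those lower included SQLE, squalene epoxidase, an enzyme held in the ER membrane (log2 fold change -2.46, adjusted p = 3.8e-05). The soluble enzyme HMGCS1 had 131, 129 and 150 against 108, 110 and 265 CPM and was not called (-0.23, adjusted p = 0.61). That value turned on whole-cell replicate 3, without which it was 0.32. PMVK, also soluble, was called higher at 0.51 (adjusted p = 0.0145) and not without that sample (0.40). Of 31 nuclear pore proteins the 2 called lower were NUP210 (-2.95, adjusted p = 1.03e-05) and NDC1 (-1.45, adjusted p = 5.03e-05), both anchored in the nuclear membrane. Without whole-cell replicate 3, 3 members were called lower. NUP205, a soluble scaffold protein, had 511 ± 16.3 against 410 ± 17.4 CPM (0.32, adjusted p = 0.0205). NUP35 and AHCTF1 were the 2 called higher (0.61, adjusted p = 0.0267, and 0.58, adjusted p = 0.0176), and without whole-cell replicate 3 NUP35 was under the fold threshold (0.44).

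**Figure D3:**
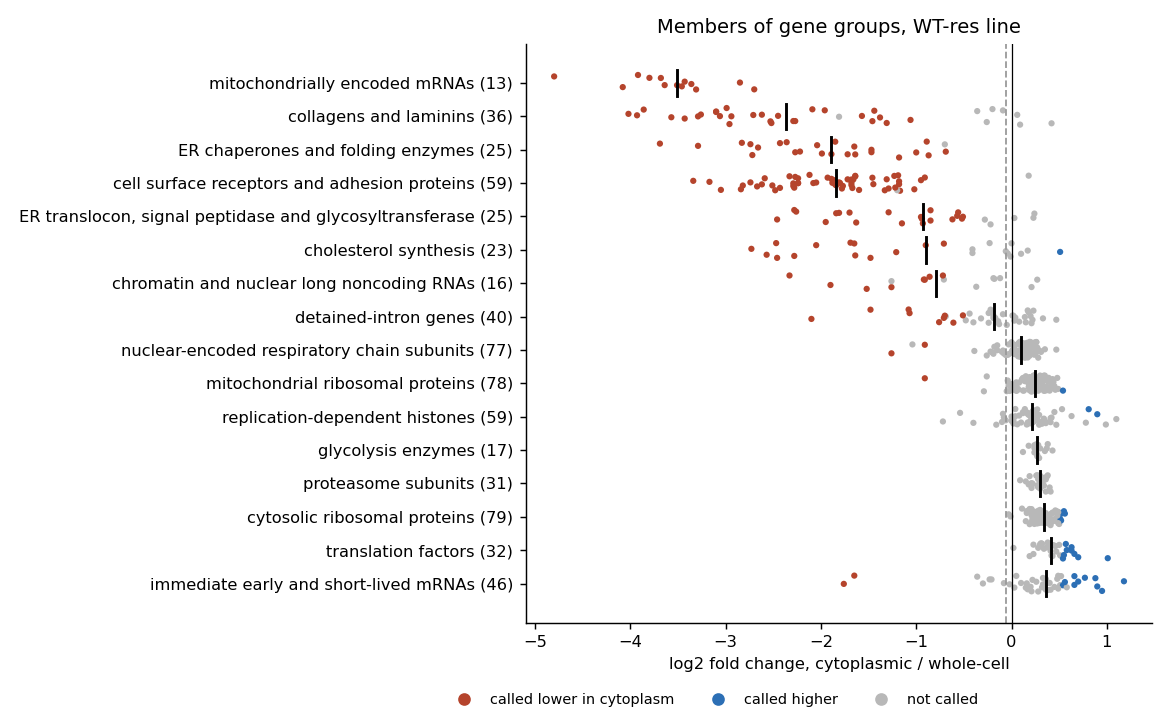
Log2 fold change (cytoplasmic over whole-cell) of each tested member of 16 gene groups, 1 point per gene with red for called lower, blue for called higher and grey for not called, a black bar at the group's median and the number tested in brackets. The dashed line is the median of all genes. Groups of mitochondrially encoded, secreted and membrane proteins lie to the left, and soluble groups within a narrow band right of 0.

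mRNAs of soluble proteins rose little or not at all relative to whole cells. All 32 translation factors had a positive log2 fold change, 9 were called higher and none lower, with a median of 0.42. EIF5B, which joins the ribosomal subunits, had 174, 188 and 146 against 76.8, 92.0 and 83.6 CPM (log2 fold change 1.01 ± 0.119, adjusted p = 0.000465), and EEF2, the translocation factor, 5774 ± 559 against 3737 ± 127 CPM (0.63, adjusted p = 0.00255). Of 79 cytosolic ribosomal proteins 8 were called higher and none lower, and 48 passed the adjusted p at any size. In 70 of the 79 the 3 cytoplasmic samples all lay above the whole-cell samples, against 21.2% of all genes. RPL7 was called (0.56, adjusted p = 0.00829), as was RPL4 at the threshold (0.50, adjusted p = 0.0151, and 0.49 with a replicate block), whereas RPS2 had 0.46 (adjusted p = 0.0128). With TMM over protein-coding genes the median of the ribosomal list went from 0.34 to 0.22 and none of it was called, and 5 of the translation factors were called. None of 17 glycolysis enzymes (median 0.27), 31 proteasome subunits (0.30) and 29 cytosolic chaperones and cytoskeletal proteins (0.30) was called. Without whole-cell replicate 3, 1 glycolysis enzyme and 1 member of the last list were called higher. ENO1 had 2961 ± 298 against 2474 ± 188 CPM (0.26, adjusted p = 0.0989) and PSMB2 271 ± 25.3 against 222 ± 21.9 CPM (0.28, adjusted p = 0.0795).

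Short-lived mRNAs held calls in both directions. Of 46 immediate early and short-lived mRNAs 10 were called higher and 2 lower, against 4.01% and 21.4% of all genes. GADD45B, a stress response gene, had 30.2, 26.8 and 31.9 against 13.7, 13.2 and 12.3 CPM, 2.27-fold higher (log2 fold change 1.18 ± 0.107, adjusted p = 0.000103). ATF3, a stress transcription factor, had 0.90 (adjusted p = 0.000265) and JUN, of AP-1, 0.66 (adjusted p = 0.0133). JUN was under the fold threshold without whole-cell replicate 3 (0.48), and with TMM over protein-coding genes 6 members of the list were called higher. The 2 lower members, CCN1 (-1.76, adjusted p = 0.000321) and CCN2 (-1.65, adjusted p = 0.00246), encode secreted proteins. Of 59 replication-dependent histone genes tested 2 were called higher and none lower, against 4.01% and 21.4% of all genes. The 2 were H3C14 (0.90, adjusted p = 0.00728) and H2AC19 (0.81, adjusted p = 0.00671). In ΔRS-res, fitted by itself, H3C14 had 0.20 (adjusted p = 0.363) and H2AC19 0.81 (adjusted p = 0.0315). H1-2 had 1252 ± 222 against 1059 ± 56.1 CPM (0.24, adjusted p = 0.204) and H1-4 had 0.45 (adjusted p = 0.0428). Of 41 mRNA export and exon junction factors 3 were called higher, UPF3B (0.78, adjusted p = 0.00201), THOC2 (0.68, adjusted p = 0.0132) and UPF2 (0.63, adjusted p = 0.00566), and 5 were without whole-cell replicate 3, while DDX39B had -0.24 (adjusted p = 0.0509) and RNPS1 0.38 (adjusted p = 0.0151). None of 17 mRNAs that the study assayed by fraction was called, and their median was 0.29 (1 was called higher with a replicate block).

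The pattern of the ER groups was followed across all coding genes with a feature of the predicted protein that the lists did not use. Of 12650 nuclear-encoded coding genes with at least 1 CPM in the higher fraction and a usable protein, windows of 19 residues with a mean hydropathy of at least 1.6 were counted without overlap, as a proxy for membrane segments. The proxy also marked proteins treated above as soluble, with 4 windows in NUP205 and 1 each in EEF2 and RPS2. Of 8580 genes without such a window 5.35% were called lower and 8.81% higher, with a median log2 fold change of 0.26. One window went with 33.1% lower (median -0.05, n = 2163), 2 windows with 55.5% (-0.75, n = 796), and 7 or more with 89.1% (-1.44, n = 367) and no higher call. Counts of 3 to 6 windows lay between 52.3% and 78.4%. A stretch at the N-terminus, an 11-residue window within the first 40 residues with a mean of at least 1.6, was present in 3002 genes, of which 53.2% were called lower. Of 2011 genes with 1 or more windows but no such start, 27.4% were called lower, and of 7636 genes with neither, 3.34%. Among the 2405 lower calls 89.4% had a stretch or a window, against 16.5% of 837 higher calls and 29.0% of genes called neither way. The counts hardly differed without whole-cell replicate 3 (5.59% lower for no window and 89.4% for 7 or more). The 6 ΔRS-res samples, tested by themselves and sharing no sample with WT-res, had 5.40% and 91.0%. These genes share libraries and families, so the shares are given without a test.

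Base composition went with the higher calls. In the 7636 genes with neither hydrophobic feature, cut into 5 equal bins by GC content of the canonical transcript, 24.7% of the lowest bin (30.7% to 40.3% GC) were called higher, against 8.84% of the next and 3.73% to 4.39% of the upper 3. Lower calls ran from 1.11% in the lowest bin to 4.98% and 4.85% in the 2 highest. Without whole-cell replicate 3 the lowest bin had 34.4% called higher, and in ΔRS-res it had 60.8%, with 0.589% in its highest bin. Median log2 fold changes from the lowest to the highest bin went from 0.39 to 0.20 in WT-res and from 0.60 to 0.14 in ΔRS-res. Transcript length divided the higher calls less, from 5.69% in the shortest to 10.3% in bins 3 and 4 of 5. By genomic span of the transcript, introns included, they ran from 4.58% in the shortest bin to 12.4% in bin 4. In ΔRS-res they ran from 8.96% in the shortest to 23.5% in the longest bin by length. By span they ran there from 4.06% in the shortest bin to 23.2% in bin 4. The whole-cell samples differed in the same property. The lowest GC bin took 16.7%, 19.2% and 20.0% of the counts of these genes in whole-cell replicates 1, 2 and 3 and 19.7%, 20.2% and 20.4% in the cytoplasmic samples, which overlapped (exact permutation test, 2-sided, p = 0.2, n = 3 each). The part of sample-to-sample GC differences in the higher calls was not tested.

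**Figure D4:**
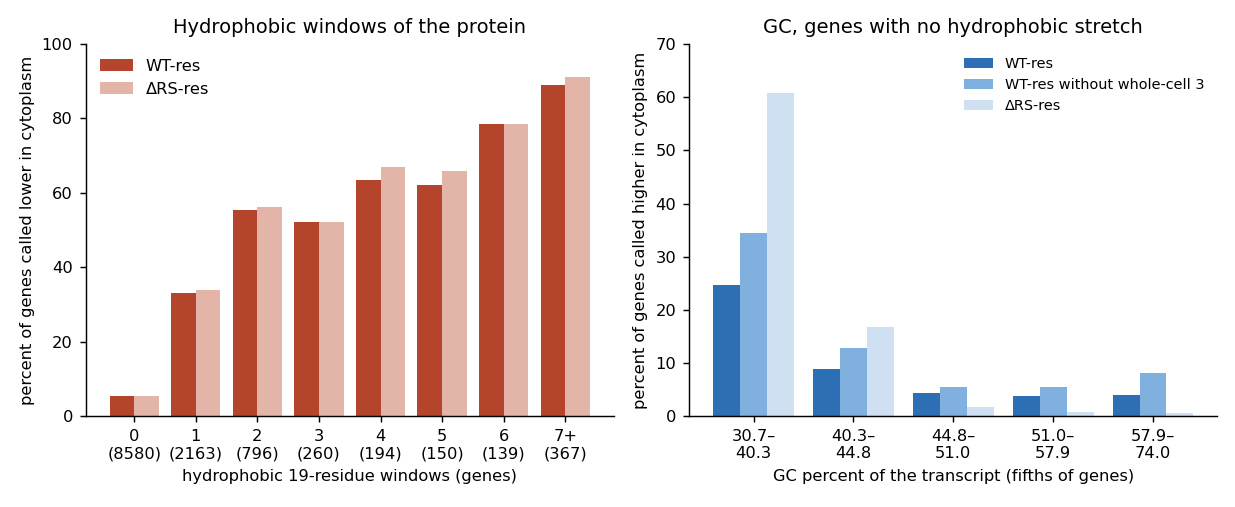
Left, percent of coding genes called lower in the cytoplasm by the number of hydrophobic 19-residue windows in the protein, in WT-res and ΔRS-res, with the number of genes in brackets. It climbs from 5.35% without a window to 89.1% with 7 or more in WT-res. Right, percent called higher in 5 equal bins of transcript GC among genes with no hydrophobic stretch, highest in the lowest bin in WT-res (24.7%), in WT-res without whole-cell replicate 3 (34.4%) and in ΔRS-res (60.8%).

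Of the 9 named coding genes with the strongest increases, 7 had 34.3% to 38.8% GC, while FILIP1 had 43.4% and RPL36A-HNRNPH2 49.1%. CENPE, a kinesin of the kinetochore (ENSG00000138778, chr4:103105349-103198445, 35.1% GC), had 146, 113 and 140 CPM in cytoplasmic and 13.7, 21.8 and 41.7 CPM in whole-cell samples, 5.16-fold higher (log2 fold change 2.37 ± 0.361, adjusted p = 0.00192). KIF20B, a kinesin of cytokinesis (34.3% GC), had 211, 213 and 227 against 35.9, 59.7 and 102 CPM (1.72, adjusted p = 0.00539). In both genes the cytoplasmic samples lay close together and the whole-cell samples spread by about 3 times, with replicate 3 highest. The same order of whole-cell samples held in ANKRD12 (1.65, adjusted p = 0.00403), TEX15 (1.62, adjusted p = 0.0147), LRRCC1 (1.55, adjusted p = 0.00921) and the Golgi tether GOLGA4 (1.51, adjusted p = 0.0116). SGO2, which protects centromeric cohesion (1.6, adjusted p = 0.00229), and FILIP1 (1.54, adjusted p = 0.00287) were higher too. RPL36A-HNRNPH2, a readthrough record that shares exons with 2 other genes (1.56, adjusted p = 0.000919), depends on how reads were divided among them. TPR, the basket of the nuclear pore (39.9% GC), had 426, 453 and 430 against 121, 219 and 377 CPM and was not called (0.87, adjusted p = 0.0802), and without whole-cell replicate 3 it was (1.35, adjusted p = 0.0035), as with a replicate block (1.02, adjusted p = 0.0153).

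Transcripts that keep introns took a smaller share of counts in the cytoplasm. Among transcripts of nuclear-encoded coding genes, those annotated as retained intron took 2.99%, 2.90% and 2.82% of these genes' counts in cytoplasmic and 5.36%, 5.09% and 5.59% in whole-cell samples, a mean 1.84 times higher in whole cells. The annotated coding transcripts took 92.1% ± 0.137 against 89.4% ± 0.274 (SD, n = 3 each). Exact permutation tests, 2-sided, gave the smallest p of 0.1 for both. Transcripts annotated for nonsense-mediated decay took 2.78% ± 0.0548 against 2.82% ± 0.014, with p = 0.4 in the same exact test. In the test over single transcripts 7285 of 128895 were called higher (5.65%) and 16070 lower (12.5%), and with a replicate block 4823 and 9005. Of 24415 retained-intron transcripts 30.6% were called lower and 0.86% higher (median log2 fold change -1.29), of 56877 coding transcripts 7.86% and 9.87% (median 0.29), and of 13676 decay transcripts 5.01% and 5.53%. RSEM divides reads that several transcripts of a gene share, so these values rest on that division. In simulated counts the transcript test recovered only 12% of 200 planted changes among 122512 transcripts. Far more transcripts were called in the data, which shifts the adjusted p, so 12% is not the recovery there. A transcript that was not called may still differ.

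The share of retained-intron counts was then followed within each gene, over 5014 genes with a mean of at least 50 counts of both kinds. Its median was 3.94% in the cytoplasm and 8.84% in whole cells. All 3 cytoplasmic samples were below all 3 whole-cell samples in 76.9% of these genes and above them in 3.91%. Of 35 genes known for detained introns, polyadenylated RNAs held in the nucleus, 32 were below without overlap and none above. CLK1, a kinase of splicing factors, had 20.6%, 19.4% and 16.3% in cytoplasmic and 59.7%, 53.1% and 66.3% in whole-cell samples. RSRP1 went from 88.1% ± 1.35 in whole cells to 40.4% ± 8.17 in the cytoplasm, and MAT2A, of methionine metabolism, from 3.95% ± 0.484 to 0.718% ± 0.155 (SD, n = 3 each). SRSF1, GABBR1 and NUMA1 overlapped. At the level of the gene, 9 of 40 such genes were called lower, close to the 21.4% of all genes, and none higher. Their median log2 fold change was -0.18. RSRP1 fell the most (log2 fold change -2.10, adjusted p = 1.03e-05). HNRNPA2B1 had 0.33 (adjusted p = 0.0324) although its retained-intron share went from 17.5% ± 1.55 in whole cells to 5.06% ± 0.566.

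**Figure D5:**
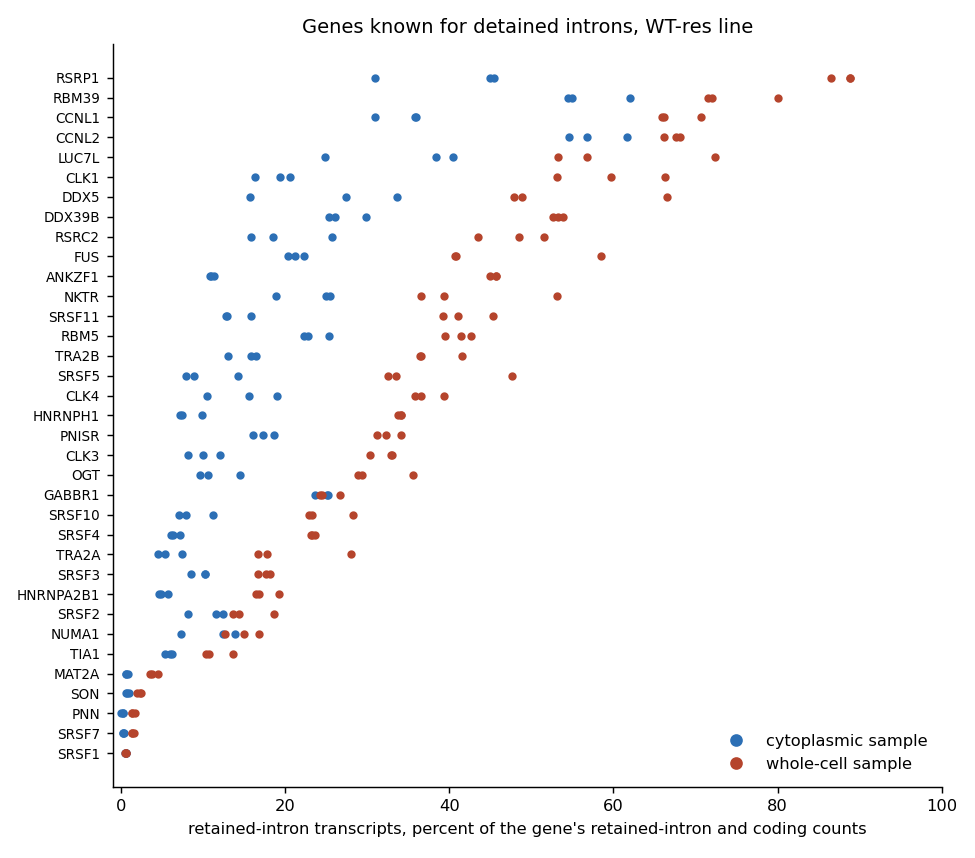
Percent of retained-intron counts among retained-intron and coding counts of 35 genes known for detained introns, 1 row per gene and 1 point per WT-res sample (3 cytoplasmic, 3 whole-cell), ordered by the whole-cell mean. In 32 of the 35 all cytoplasmic points lie left of all whole-cell points.

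The ΔRS-res line, fitted by itself, gave values for the same groups. Its medians were -3.21 for mitochondrially encoded mRNAs, -2.0 for ER chaperones, -2.63 for collagens and laminins, -1.95 for cell surface proteins, -3.08 for snoRNAs and 0.26 for cytosolic ribosomal proteins. The difference between the lines in the fraction effect was tested as an interaction over all 12 samples. It was called for 1 of 26686 genes (0.00375%), the lncRNA ENSG00000263244, and for 3 genes by DESeq2. At an unadjusted p under 0.05 there were 1472 genes, 5.52% of those tested. In simulated counts the interaction test recovered 68.5% of 200 planted changes, so it can miss some differences between the lines.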

How the data were processed

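RNA-seq of 12 samples was processed by the authors with nf-core/rnaseq, that is Trim Galore, STAR and RSEM on GRCh38 with Ensembl 107. Versions of these tools are not given in the sources used here. The deposited values are expected counts per transcript, not normalized. They were summed per gene, rounded and matched to GENCODE 44 (99.8% of genes). The 6 WT-res samples were fitted with edgeR 4.0.16 (glmQLFit, TMM, mean count above 2, no block), and DESeq2 1.42.0 was an alternative. The tests were checked first on simulated counts with 200 planted changes each. The gene test recovered 80% of these, the interaction test 68.5% and the transcript test only 12%. For genes and transcripts by fraction, far more than 200 were called in the data. These 2 shares therefore do not measure recovery in the data. Coding starts were translated to score hydropathy. The library protocol selects against short fragments in both fractions. Named genes are fraction markers, the 10 largest changes per direction (at least 5 CPM, no overlap), and in each list the 2 highest levels and both extremes. Some genes that this rule names are not reported here. Other named genes, among them HSP90AB1, were chosen after their values were seen. The members and lists were chosen with earlier results of these data known. The study's sample sheet gives whole-cell and cytoplasmic samples of 1 number the same cell pellet, although different wells are described. Deviations of same-numbered samples from their group means correlated at -0.167, 0.528 and 0.42 over 14910 genes, so the numbers were not taken as pairs. No 2 samples of a group were copies (chi-square per gene of at least 41.2).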

Additional observations from a re-analysis of the deposited data

Results flagged for a closer look

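The lncRNA ENSG00000263244 (chr16:9104848-9113181) was flagged because its fraction effect differed between the lines in the interaction test (12.92 on the log2 scale, WT-res minus ΔRS-res, edgeR adjusted p = 0.000452). It had 1322, 1527 and 2360 counts in WT-res cytoplasmic and 3259, 3418 and 3298 in WT-res whole-cell samples. In ΔRS-res it had 0 in all 3 cytoplasmic samples and 1479, 1394 and 3164 in whole-cell samples. Whether its reads were assigned to an overlapping record in the samples at 0, as in SNORD3D, was not tested. The size of the fitted value depends on how counts of 0 are handled and is no bound. For this flagging, groups of 3 samples were not screened for single outlying samples, while WT-res whole-cell replicate 3 is described above.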

How the results depend on the processing

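Genes called lower in the cytoplasm numbered 5692 and stayed within 1.5 times that count under every alternative run, from 4085 to 5714 with 1 sample left out. Genes called higher (1065) depended on the setting, with 1837 under DESeq2's size factors, 516 under library totals, 365 under TMM over protein-coding genes, 1908 by DESeq2's Wald test, 2442 with cytoplasmic replicates 1 and 3 against whole-cell replicates 1 and 2, 3188 without a fold threshold, and 425 to 1535 with 1 sample left out. Transcripts called higher (7285) were 13861 at an unadjusted p and 2361 to 6794 with 1 sample left out, and those called lower (16070) were 26682 and 8378 to 12882. A replicate block gave 1304 and 5880 genes and 4823 and 9005 transcripts higher and lower, and without WT-res whole-cell replicate 3 it gave 733 and 3857 genes. Whether the numbers pair the samples is not settled, and the cause of these moves was not tested. The interaction of fraction and line gave 1 gene, and 3 by DESeq2.

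Of 99 named genes 77 kept their direction and their side of the threshold under all alternatives. With 1 sample left out, log2 fold changes ran from -1.41 to 0.09 for SDHA, -0.10 to 0.13 for PPARGC1A, -0.01 to 0.38 for SEC61B, -0.47 to 0.32 for HMGCS1 and -0.61 to 0.03 for HSPA8, and PPARGC1A was at -0.03 under library totals and -0.07 under TMM over protein-coding genes. None of these 5 was called. Differences in share by RNA class and transcript type moved by less than the larger of the 2 groups' SDs. Depth limits the weakest RNAs, such as mitochondrial tRNAs.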
